A study of Homo sapiens with 23 samples.

Results

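The keratins examined here are 10 genes of colorectal epithelium, namely KRT15, KRT17, KRT18, KRT19, KRT20 and KRT23 of type I and KRT7, KRT8, KRT80 and KRT81 of type II. They were matched by symbol to the Ensembl identifiers of 57875 genes listed in each sample, and all 10 were found. RNAseq was done on wild-type (WT) HCT116 cells, a human colorectal carcinoma line, and on 4 lines of AGO knockout cells made from it by CRISPR editing. The knockout genotypes are labelled AGO1-/-, AGO2-/-, AGO1/2-/- (here the double knockout) and AGO1/2/3-/- (the triple knockout), and all 5 lines were grown in the same medium with 3 samples each and no further treatment. Only 1 line stood for each genotype, so that genotype and line cannot be told apart, and p-values measure only the spread between these samples.

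Keratins are the intermediate filament proteins of epithelial cells. A filament needs a type I and a type II chain, which pair with each other, and an unpaired chain is usually degraded. KRT8 with KRT18 is the basic pair of simple epithelia, and KRT19 joins it in the gut. KRT20 marks differentiated intestinal cells, whereas KRT7 is typical of ducts and is usually low in the colon. KRT15 and KRT17 are better known from the basal layers of stratified epithelia, and KRT81 from hair. Argonaute (AGO) proteins carry microRNAs (miRNAs) to target transcripts, and the lines address how steady state RNA levels change when 1, 2 or 3 of them are lost.

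Levels are given as CPM, the depth-scaled unit of edgeR, from the estimated counts that the authors deposited and with TMM factors for library size. The samples held 27709971 to 45271146 counts each (median 30701840). Of all genes listed, 22842 passed edgeR's filter on low counts and were tested in 1 model of the 15 samples. Genes were called at an adjusted p of 0.05 or less, by the quasi-likelihood test of edgeR and Benjamini-Hochberg adjustment over all genes tested, and every adjusted p given is of this kind. *AGO1* RNA was at 28.7 to 39.5 CPM in the 9 samples labelled as lacking AGO1 and at 108 to 161 CPM in the other 6. *AGO2* RNA was called lower in *AGO2* knockout cells (log2 fold change -0.51), was not called in double knockout cells (-0.26) and was called higher in triple knockout cells (0.40). An edit of the coding sequence need not lower the RNA, so that the *AGO2* level does not check these labels. The *AGO2* knockout samples alone name 'quasi_quant' in their headers where the others name 'quant'. This is taken here as another Salmon mode, which cannot be told apart from genotype. These samples were also deep, at 40419152 to 45271146 counts. Outside them only triple knockout replicate 1 (40567975) held more than the 32381721 counts of WT replicate 3. WT replicate 2 stood apart from the other WT samples in several keratins, and values without it are given beside the results it changes most.

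KRT8 and KRT18 were the most abundant keratins per length of transcript in WT cells. KRT8 (ENSG00000170421) lies on the minus strand at chr12:52897187-52949954 of GRCh38 and KRT18 (ENSG00000111057) on the plus strand at chr12:52948871-52952906, so that the 2 annotated genes overlap at their ends. Reads were stranded by the library kit. In WT cells KRT18 ranked 124 and KRT8 ranked 125 among 14830 protein-coding genes tested, by CPM per kilobase of canonical transcript, and KRT19 (ENSG00000171345, chr17:41523617-41528308) ranked 175. Together these genes made up 96.1% ± 0.936 (SD, n = 3) of the RNA of all 55 keratin genes on that scale in WT cells and 98.0% ± 0.155 (SD, n = 3) in triple knockout cells. KRT15 followed at rank 5218, KRT23 at 6514, KRT7 at 7394, KRT80 at 10783 and KRT20 at 13052. KRT17 and KRT81 did not pass the filter on low counts, so that 8 of the 10 members were tested.

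**Figure D1:**
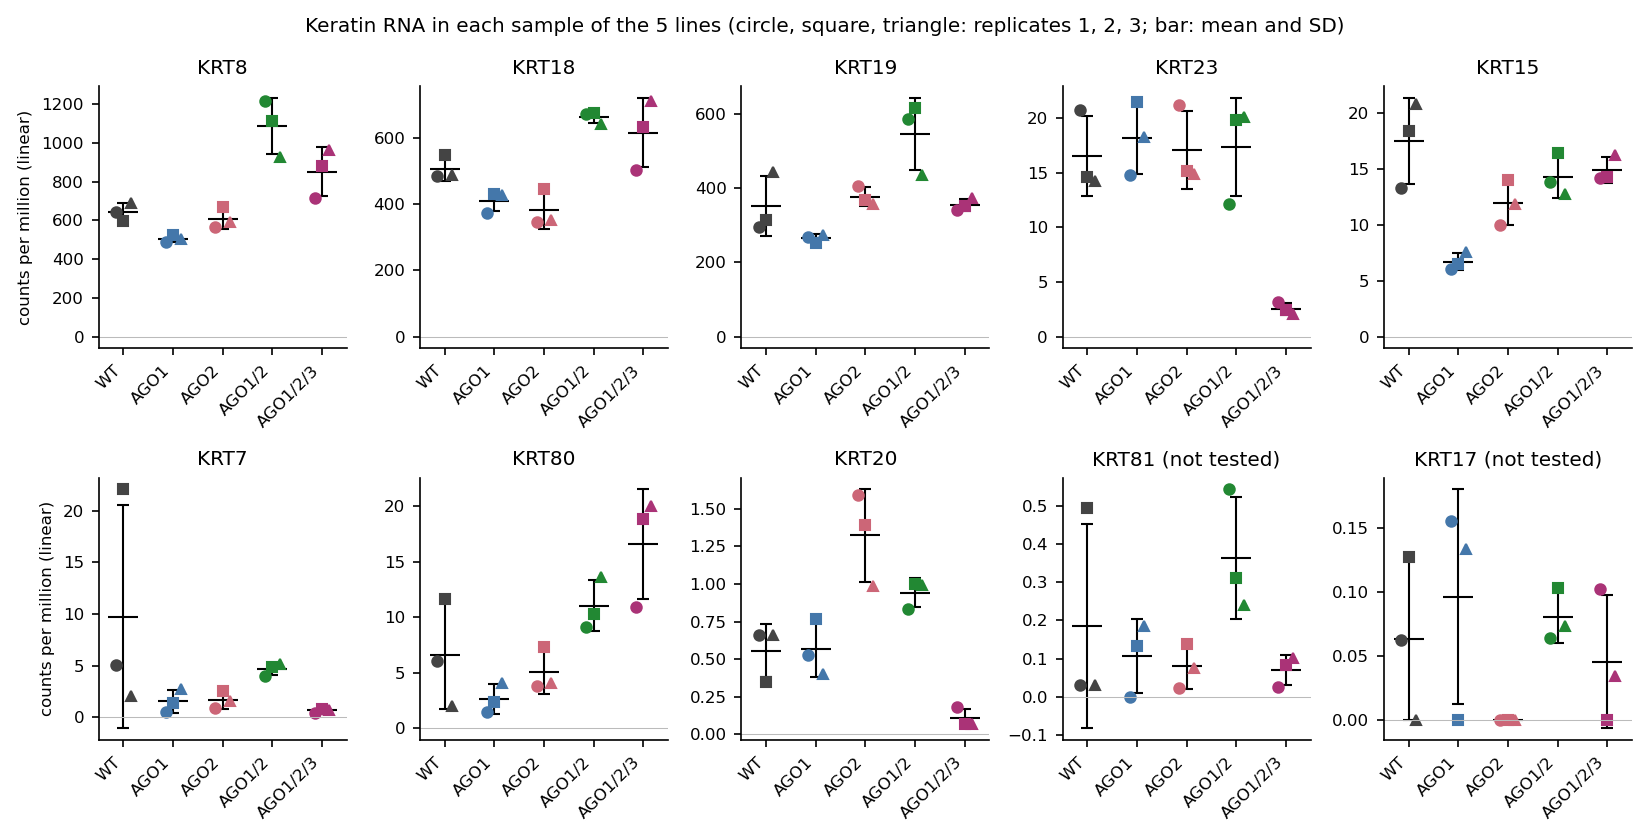
CPM of each keratin (vertical axes, linear, a separate scale per gene) in the 3 samples of each line, with replicates 1, 2 and 3 as circle, square and triangle and the mean and SD as bars. KRT23 lies at 2.03 to 3.16 CPM in triple knockout cells against 12.2 to 21.5 CPM in all other samples, and WT replicate 2 lies above the other WT samples for KRT7, KRT80 and KRT81.

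KRT8, the main type II chain, was at 641, 596 and 688 CPM in the 3 WT samples. It was at 1218, 1111 and 929 CPM in double knockout cells and at 714, 880 and 962 CPM in triple knockout cells. All 6 samples of these double and triple knockout lines lay above all WT samples. In *AGO1* knockout cells it was at 490, 526 and 502 CPM, below all WT samples, and in *AGO2* knockout cells at 565, 670 and 592 CPM, which overlapped WT. The log2 fold change against WT was 0.76 in double knockout cells (standard error, SE, 0.12, adjusted p = 0.000652) and 0.41 in triple knockout cells (SE 0.12, adjusted p = 0.0157). The first call was kept under all 22 alternative settings run, with values from 0.65 to 0.86, and the second was lost under 6 of 22, with adjusted p up to 0.14 and 0.0772 without WT replicate 2. KRT8 was not called in *AGO1* (-0.34, adjusted p = 0.107) or *AGO2* knockout cells (-0.08, adjusted p = 0.698).

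KRT18, the type I partner of KRT8, was at 486, 551 and 488 CPM in WT samples and at 674, 676 and 643 CPM in double knockout cells. The double knockout samples lay above all WT samples, but the log2 fold change of 0.39 (SE 0.13) was not called, at adjusted p = 0.0530. In triple knockout cells the samples were at 505, 636 and 712 CPM, overlapping WT, with a log2 fold change of 0.28 (SE 0.13, adjusted p = 0.0978). In *AGO2* knockout cells they were at 347, 448 and 353 CPM, below all WT samples. There KRT18 was called lower, with a log2 fold change of -0.41 (SE 0.13, adjusted p = 0.0387), and this call was lost under 9 of 22 settings, among them DESeq2's size factors and, in turn, the fits without WT replicate 1 or 2 and without *AGO2* knockout replicate 1 or 3. Without WT replicate 2 it was -0.37 (adjusted p = 0.114). Whether KRT8 and KRT18 changed by different amounts in a line was not tested.

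KRT19, a type I keratin without the usual tail domain, was at 296, 314 and 445 CPM in WT samples and at 588, 616 and 435 CPM in double knockout cells. Double knockout replicate 3 lay below WT replicate 3, so that the groups overlapped. Its log2 fold change was 0.64 (SE 0.15, adjusted p = 0.00807), and the call was lost under 3 of 22 settings, with adjusted p up to 0.0926. In triple knockout cells KRT19 was at 340, 353 and 373 CPM, within the WT range, with a log2 fold change of 0.02 (SE 0.15, adjusted p = 0.948) that was -0.12 with total counts only. It was called lower in triple knockout than in double knockout cells, by a log2 fold change of -0.62 (SE 0.15, adjusted p = 0.00727). This last call was kept under all 22 settings.

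KRT23 (ENSG00000108244, chr17:40922700-40937646, minus strand) was called lower in the triple knockout line alone. This type I keratin is low in normal colon and is known from colorectal tumours. It was at 20.7, 14.6 and 14.2 CPM in WT samples. It was at 14.8 to 21.5 CPM in *AGO1*, 14.9 to 21.2 CPM in *AGO2* and 12.2 to 20.1 CPM in double knockout cells. In triple knockout cells it was at 3.16, 2.42 and 2.03 CPM, below each of the other 12 samples. The log2 fold change was -2.69 against WT (SE 0.25, adjusted p = 7.37e-07) and -2.76 against double knockout cells (SE 0.25, adjusted p = 2.09e-06). Both calls were kept under all 22 settings, with values from -2.91 to -2.51 against WT. The log2 fold changes in the other knockout lines were 0.14, 0.05 and 0.07 (SE 0.22 each, adjusted p from 0.770 to 0.893), and none was called.

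KRT20 (ENSG00000171431, chr17:40875889-40885242, minus strand), the marker of differentiated intestinal cells, was rare in every line. It was at 0.658, 0.351 and 0.663 CPM in WT samples, from 11 to 22 counts per sample. In *AGO2* knockout cells it was at 1.59, 1.39 and 0.988 CPM, above all WT samples. In double knockout cells it was at 0.833, 1.0001 and 0.995 CPM, also above WT, and in triple knockout cells at 0.179, 0.0701 and 0.0678 CPM, from 2 to 7 counts and below all other samples. The log2 fold change was -2.28 in triple knockout cells (SE 0.44, adjusted p = 0.000660) and -3.03 relative to double knockout cells (SE 0.42, adjusted p = 8.27e-05), and both were kept under all 21 settings in which KRT20 was tested. In *AGO2* knockout cells it was 1.24 (SE 0.29, adjusted p = 0.0116), and without WT replicate 2 it was 0.98 with adjusted p = 0.0573. In double knockout cells it was 0.75 (SE 0.31, adjusted p = 0.123).

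KRT7 (ENSG00000135480, chr12:52232520-52252186, plus strand), the ductal type II keratin, was at 5.08, 22.1 and 2.08 CPM in WT samples. WT replicate 2 stood far above the others, with 692 counts against as few as 69 in another WT sample. In *AGO1* knockout cells KRT7 was at 0.560, 1.35 and 2.77 CPM and in *AGO2* knockout cells at 0.873, 2.59 and 1.57 CPM, both overlapping WT. double knockout cells had 4.003, 4.83 and 5.16 CPM. In triple knockout cells it was at 0.459, 0.841 and 0.746 CPM, below every WT sample. KRT7 in the triple knockout line had a log2 fold change of -3.86 (SE 0.77, adjusted p = 0.000882) with all samples and -2.44 (adjusted p = 0.0025) without WT replicate 2. The calls in *AGO1* (-2.64, adjusted p = 0.0274) and *AGO2* knockout cells (-2.53, adjusted p = 0.0197) were lost without WT replicate 2, at -1.20 (adjusted p = 0.172) and -1.12 (adjusted p = 0.162). KRT7 was called lower in triple than in double knockout cells (log2 fold change -2.80, SE 0.78, adjusted p = 0.0176). This change does not use the WT level, but its SE and p draw on a spread shared with the WT samples. That call was lost in 2 fits, each without a sample of the triple knockout line, at adjusted p up to 0.0718.

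KRT15 (ENSG00000171346, chr17:41513745-41522529, minus strand), the basal type I keratin, was at 13.3, 18.4 and 20.8 CPM in WT samples. *AGO1* knockout cells had 6.06, 6.47 and 7.53 CPM, below the samples of every other line. The log2 fold change in *AGO1* knockout cells was -1.39 (SE 0.17, adjusted p = 0.000169), and the call was kept under all 22 settings. In *AGO2* knockout cells KRT15 was at 10.01, 13.98 and 11.8 CPM, overlapping WT, with a log2 fold change of -0.55 (SE 0.16, adjusted p = 0.0316) that was lost under 5 of 22 settings, at adjusted p = 0.0787 without WT replicate 2. It was not called in double knockout (-0.29, adjusted p = 0.268) or triple knockout cells (-0.23, adjusted p = 0.289), where it was at 12.7 to 16.4 CPM.

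KRT80 (ENSG00000167767, chr12:52168996-52192014, minus strand), a type II keratin of differentiating epithelia found near desmosomes, was at 6.08, 11.6 and 2.02 CPM in WT samples. It was at 1.40, 2.34 and 4.10 CPM in *AGO1*, 3.81, 7.29 and 4.03 CPM in *AGO2* and 9.16, 10.3 and 13.6 CPM in double knockout cells. Triple knockout cells had KRT80 at 10.9, 18.8 and 20.0 CPM, and the lowest of these lay under WT replicate 2. The log2 fold change of 1.33 (SE 0.47, adjusted p = 0.0326) was lost under 7 of 22 settings, among them the DESeq2 test and total counts only, and was 2.01 (adjusted p = 0.00273) without WT replicate 2. Against *AGO1* knockout cells, where KRT80 was lowest, its log2 fold change in triple knockout cells was 2.66 (SE 0.51, adjusted p = 0.000571). That change does not use the WT level, but its SE and p draw on a spread shared with the WT samples. Against *AGO2* knockout cells KRT80 was called higher in triple knockout cells (1.71, adjusted p = 0.00854). Against double knockout cells it was not called there (0.59, SE 0.46, adjusted p = 0.407).

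The remaining members were near the limit of detection. KRT17 (ENSG00000128422, chr17:41619442-41624842) had 0 to 5 counts per sample, with 0 counts in all 3 *AGO2* knockout samples, and no fold change is given. The pseudogenes of KRT17 together held more counts than KRT17 in every line, as given below. KRT81 (ENSG00000205426, chr12:52285913-52291534) was at 0.0313, 0.495 and 0.0302 CPM in WT samples, at 0.544, 0.310 and 0.239 CPM in double knockout cells, and at most 0.187 CPM in the other lines. It was at 3 counts or fewer in each sample of triple knockout cells. WT replicate 2 held 16 counts of KRT81, and it was also the WT sample with the most KRT86 (0.620 CPM), a hair keratin named here after its values were seen, which shares 43.2% of the 31-base words of KRT81.

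In single knockout cells lacking AGO1, 0 of the 8 members tested were higher and 2 lower (KRT7 and KRT15), where 8.68% of all genes tested were called, 3.17% higher and 5.50% lower. In those lacking AGO2, 1 was higher (KRT20) and 3 lower (KRT7, KRT15 and KRT18), beside 19.3% of all genes, 8.55% higher and 10.8% lower. Double knockout cells had 2 higher (KRT8 and KRT19) and 0 lower, beside 16.7%, with 8.37% higher and 8.35% lower. In triple knockout cells 2 were higher (KRT8 and KRT80), 3 lower (KRT7, KRT20 and KRT23) and 3 not called, beside 40.1%, with 20.3% higher and 19.8% lower. Set against double knockout cells, triple knockout cells had 0 members higher and 4 lower (KRT7, KRT19, KRT20 and KRT23), beside 22.0% of all genes, 11.9% higher and 10.0% lower. Leaving out WT replicate 2 changed the counts against WT to 0 higher with 1 lower for *AGO1* and 0 with 0 for *AGO2*. They were 3 with 0 for the double and 1 with 3 for the triple knockout line. Of 23407 genes tested in that fit, 661 were called higher and 1146 lower for *AGO1*, and 494 and 1380 for *AGO2*. For the double knockout line these were 1565 and 1782, and for the triple 4143 and 4451. Counts without WT replicate 2 given below come from the same fit. With all 15 samples the 8 members had median log2 fold changes of -0.38 (*AGO1*), -0.23 (*AGO2*), 0.52 (double) and -0.11 (triple). All genes tested had -0.01, -0.02, 0.01 and -0.01. The 4 comparisons with WT share the WT samples.

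**Figure D2:**
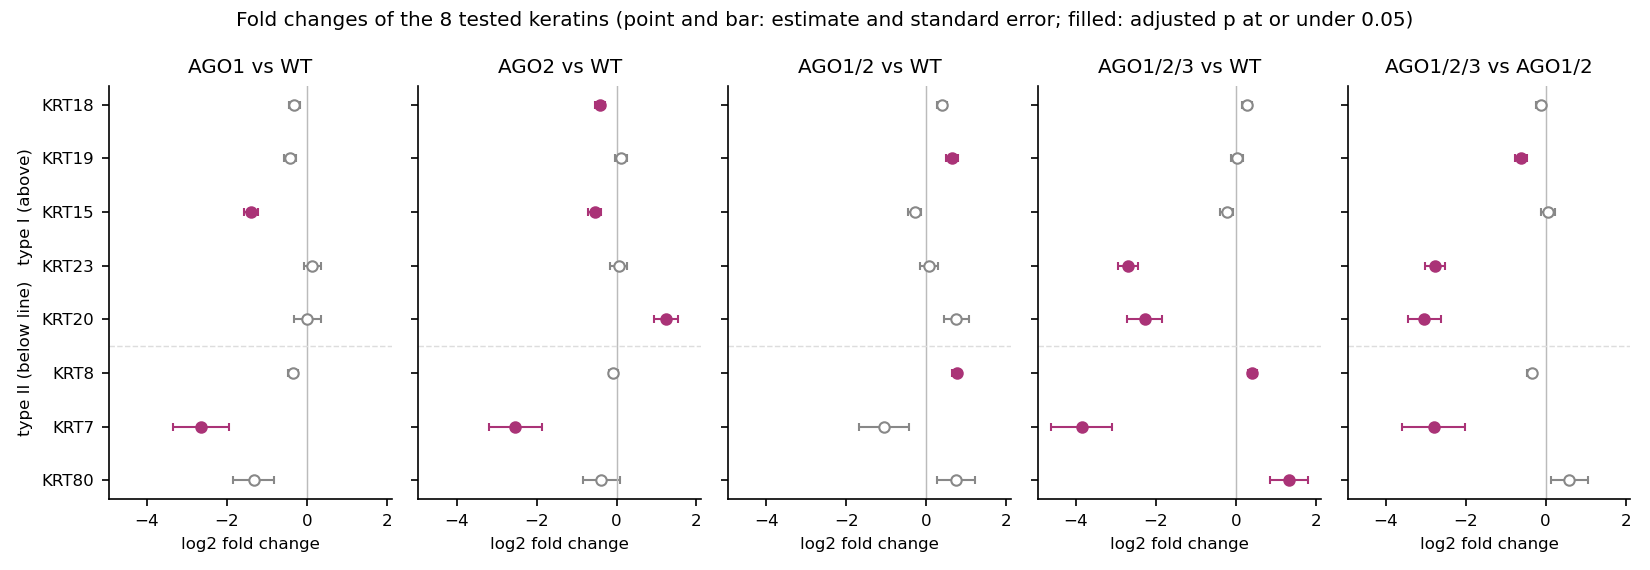
Log2 fold change and standard error (horizontal axes) of the 8 tested keratins in 5 comparisons, type I above and type II below the dashed line, with filled points for adjusted p at or under 0.05. KRT23 stands at -2.69 in the comparison of triple knockout cells with WT and at 0.14, 0.05 and 0.07 in those of the *AGO1*, *AGO2* and double knockout lines.

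The order of the lines differed between keratins. KRT8, KRT18 and KRT19 were highest in double knockout cells, with means of 1086, 664 and 546 CPM, and KRT80 in triple knockout cells (16.6 CPM). KRT15 and KRT7 were highest in WT cells (17.5 and 9.74 CPM), KRT20 in *AGO2* (1.32 CPM) and KRT23 in *AGO1* knockout cells (18.2 CPM). The place of KRT7 rested on WT replicate 2, without which its log2 fold change in double knockout cells (4.66 CPM) turned from -1.06 to 0.36, neither of them called. For KRT23, the *AGO1*, double knockout, *AGO2* and WT lines did not differ between neighbours in the order, and only the step from WT to triple knockout cells passed the test. KRT20 likewise had a single step that passed, from WT (0.557 CPM) to triple knockout cells (0.105 CPM). In KRT15 the step from *AGO2* (11.9 CPM) to *AGO1* knockout cells (6.69 CPM) passed (adjusted p = 0.00399), in KRT19 that from double knockout to *AGO2* knockout cells (377 CPM, adjusted p = 0.0178), and in KRT8 that from triple knockout (852 CPM) to WT (642 CPM). No step between neighbours passed for KRT18, KRT7 or KRT80. Over these further pairs of lines, 18.4% of genes were called between the *AGO2* and *AGO1* lines, 19.5% between double knockout and *AGO1*, 23.9% between double knockout and *AGO2*, 40.6% between triple knockout and *AGO1* and 40.3% between triple knockout and *AGO2*. A p that misses the threshold does not show that such neighbours were alike.

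The effect of AGO1 loss was also compared between cells with and without AGO2, with alternatives chosen after the data were seen. It sets double knockout against *AGO2* knockout cells and *AGO1* knockout against WT cells. KRT8 had a log2 fold change of 0.83 (SE 0.12, adjusted p = 0.000245) upon AGO1 loss in cells without AGO2 and of -0.34 (SE 0.12) in cells with AGO2, a difference of 1.18 (SE 0.18, adjusted p = 0.000376). For KRT18 the changes were 0.80 (SE 0.13) and -0.31 (SE 0.13), a difference of 1.10 (SE 0.18, adjusted p = 0.000842). KRT19 had 0.53 and -0.41 (SE 0.15 each), a difference of 0.94 (SE 0.21, adjusted p = 0.00643), and KRT15 had 0.26 and -1.39 (SE 0.17 each), a difference of 1.65 (SE 0.24, adjusted p = 0.000295). The difference was 4.11 for KRT7 (SE 0.97, adjusted p = 0.00867) and 2.69 (adjusted p = 0.0122) without WT replicate 2. For KRT80 it was 2.46 (SE 0.69, adjusted p = 0.0217) and was lost without WT replicate 2, at 1.77 (adjusted p = 0.0571). KRT20 (-0.50, adjusted p = 0.454) and KRT23 (-0.12, adjusted p = 0.831) showed none that passed. In all, 6 of 8 members were called higher and 0 lower, beside 19.7% of all genes tested called, 11.5% higher and 8.26% lower. The 4 lines were each a single line, and line and genotype cannot be told apart. The difference also uses the *AGO2* knockout samples, whose headers alone bear the label taken as another Salmon mode. The part of that mode or of their depth was not tested.

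**Figure D3:**
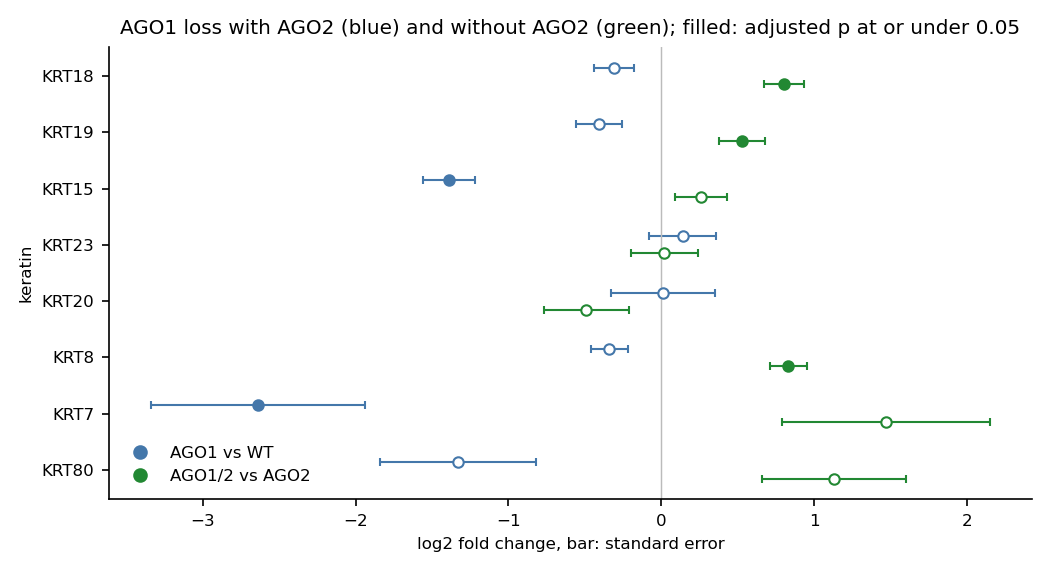
Log2 fold change and standard error (horizontal axis) of each tested keratin upon AGO1 loss, in cells with AGO2 (blue, *AGO1* knockout against WT) and without AGO2 (green, double knockout against *AGO2* knockout). KRT8, KRT18 and KRT19 lie at -0.34, -0.31 and -0.41 with AGO2 and at 0.83, 0.80 and 0.53 without it, while for KRT23 the values are 0.14 and 0.02.

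Type I and type II chains were summed separately per kilobase of canonical transcript, since they assemble in equal numbers. In WT cells the type I members summed to 630 ± 54.9 CPM per kb and the type II members to 367 ± 18.7 CPM per kb (SD, n = 3), a ratio of 1.72 ± 0.121. It was 1.73 ± 0.0611 for the *AGO1* and 1.63 ± 0.1003 for the *AGO2* knockout line, and 1.44 ± 0.0943 in double knockout and 1.46 ± 0.0481 in triple knockout cells (SD, n = 3 each). Single samples ranged from 1.58 to 1.80 in WT, from 1.33 to 1.497 in double knockout and from 1.43 to 1.52 in triple knockout cells, so that the last 2 lines did not overlap WT. KRT8 made up 35.6% ± 2.17 of keratin RNA per length in WT cells and 39.9% ± 0.748 in triple knockout cells, and KRT19 24.8% ± 4.05 and 21.6% ± 2.02 (SD, n = 3 each). Coding length in place of transcript length lowered the ratio in every line, to 1.57 in WT and 1.32 in triple knockout cells. The ratio is a description of chosen genes and was given no p, and it depends on how shared reads were split.

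**Figure D4:**
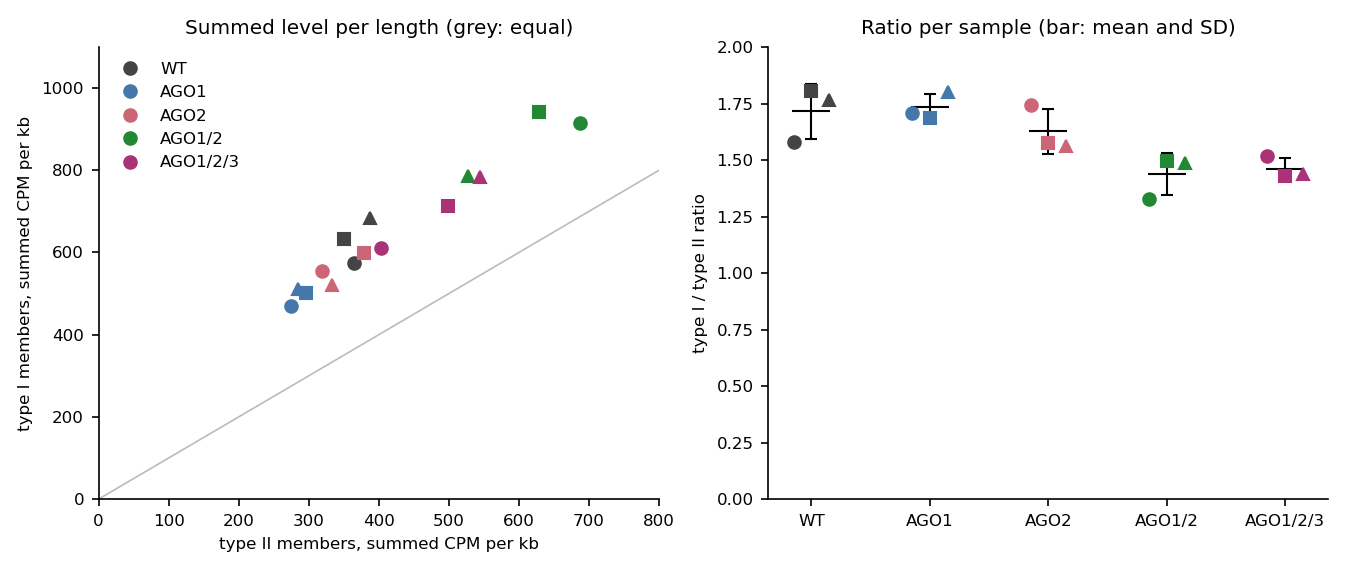
Left, summed CPM per kb of type I members (vertical axis) against type II members (horizontal axis) for each sample, with a grey line where both are equal. Right, their ratio per sample with mean and SD, where double knockout and triple knockout samples lie at 1.33 to 1.52 and WT samples at 1.58 to 1.80.

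Many keratin genes have near-identical processed copies, which limits how reads can be assigned. Of the 31-base words in the exons of each gene, 66.9% occur in other annotated genes for KRT18, 59.8% for KRT8, 53.2% for KRT81, 37.7% for KRT17, 11.4% for KRT19 and at most 5.41% for KRT15, KRT7 and KRT80. KRT20 and KRT23 share 0 such words, so that their values do not depend on that assignment. KRT8 has 51 annotated pseudogenes and KRT18 has 67. In WT cells the pseudogenes took 1.45% of the counts of KRT8 and its pseudogenes together and 1.04% of those of KRT18, and the highest were KRT8P4 at 2.88 CPM and KRT18P31 at 1.18 CPM. The share for KRT8 ran from 0.917% in double knockout to 2.45% in *AGO1* knockout cells. KRT17 was the reverse, as its 8 pseudogenes held 95.5% of the joint counts in WT cells, at a summed 1.35 CPM. That share ran from 91.1% in *AGO1* to 100% in *AGO2* knockout cells. How far read assignment set the KRT17 counts was not tested.

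The 3′-UTRs of the members were short, with lengths of 64 to 472 bases in canonical transcripts, except for KRT80 with 2402 bases. The median over 14759 protein-coding genes tested was 1318 bases. They were searched for matches to bases 2 to 8, the seed, of 6 miRNAs for which the study ran qPCR assays. Their mature sequences are taken from RefSeq (GRCh38.p14) and shown because AGO proteins select targets mainly through the seed, which is in capitals, and let-7a and let-7f share theirs.
hsa-let-7a-5p: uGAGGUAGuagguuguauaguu
hsa-let-7f-5p: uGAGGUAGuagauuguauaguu
hsa-miR-21-5p: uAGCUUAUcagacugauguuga
hsa-miR-27a-3p: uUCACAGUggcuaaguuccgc
hsa-miR-29a-3p: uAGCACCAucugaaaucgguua
hsa-miR-125b-5p: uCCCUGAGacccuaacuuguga

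The transcript strand of each 3′-UTR was searched for the word that pairs with each seed, and the matches found do not overlap. Over the 14759 genes, 11.2% of 3′-UTRs held the let-7 word CTACCTC and 9.65% the miR-21-5p word ATAAGCT. The miR-27a-3p word ACTGTGA was in 17.5%, the miR-29a-3p word TGGTGCT in 15.9% and the miR-125b-5p word CTCAGGG in 16.5%. KRT80 held 2 matches and the other 9 members 0. The match to miR-29a-3p starts at base 1607 of the KRT80 3′-UTR (chr12:52169785-52169791, minus strand, GRCh38) and that to miR-125b-5p at base 983 (chr12:52170409-52170415). Both sites are shown 5′ to 3′ on the transcript strand with the match in capitals, since KRT80 was the single member with any and was called higher in triple knockout cells.
KRT80 site for miR-29a-3p: aagagggtgctgatTGGTGCTtttcctc
KRT80 site for miR-125b-5p: caagaatctcacttCTCAGGGcctctgt

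A match is a description of the sequence and not evidence of binding. The other members called in any line, KRT7, KRT8, KRT15, KRT18, KRT19, KRT20 and KRT23, held none of the 5 words in their canonical 3′-UTRs.

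Other keratins were largely silent. Of 45 further keratin genes, 7 passed the filter, all of type I, and 0 of the 22 type II genes did. KRT10, a suprabasal keratin, fell from 19.1, 24.2 and 19.6 CPM in WT samples to 14.2, 13.4 and 13.9 CPM in triple knockout cells, a log2 fold change of -0.60 (SE 0.11, adjusted p = 0.000579). KRT13, the mucosal keratin next to KRT15, was at 0.470, 0.542 and 0.754 CPM in WT samples and at 0, 0.0350 and 0 CPM in triple knockout cells, at least 6.23-fold lower when set against 3 counts per library. It was called lower in *AGO1* (-1.79, adjusted p = 0.0253) and higher in double knockout cells (1.13, adjusted p = 0.0342), and these calls were lost under 4 and 7 of 21 settings. KRT32, a hair keratin, was at least 2.39-fold lower in triple knockout cells, while KRT34, another hair keratin, was at 0.510, 1.12 and 0.847 CPM there and at least 8.85-fold higher than in WT cells, whose samples were all at 3 counts or fewer. KRT222 was called lower in triple knockout than in double knockout cells (-0.91, adjusted p = 0.00351), and KRT26 was called in no comparison. KRT16 was called lower in *AGO2* knockout cells (adjusted p = 0.0451), at least 4.93-fold against 3 counts per library, a call that rested on 0.956 CPM in WT replicate 2 against 0.0313 and 0.0603 CPM in the other WT samples. Without that sample the adjusted p was 0.778, and KRT16 was called higher in triple knockout cells instead (adjusted p = 0.0072). Against WT, triple knockout cells gave for the 7 genes 1 higher and 3 lower, beside 20.3% and 19.8% of all genes tested. The median log2 fold change was -0.37 against -0.01 over all genes tested, and without WT replicate 2 the counts were 2 higher and 4 lower. Double knockout cells gave 2 higher and 0 lower, beside 8.37% and 8.35%, and 1 and 0 without WT replicate 2. KRT32 was called higher there (1.40, adjusted p = 0.0166), a call lost under 4 of 21 settings.

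Keratin filaments end at desmosomes and are tied to other structures by plakin linkers. Of 20 such genes, 16 were tested, and in triple knockout cells 9 were called higher and 3 lower, with a median log2 fold change of 0.47, where 20.3% of all genes were called higher and 19.8% lower. Without WT replicate 2 the counts were 8 and 3. PKP3, a plakophilin of the desmosomal plaque, had 41.7, 40.2 and 49.5 CPM in WT samples and 7.32, 6.87 and 5.29 CPM in triple knockout samples, a log2 fold change of -2.75 (SE 0.14, adjusted p = 2.49e-09). It was also lower in *AGO2* (-0.90) and double knockout cells (-1.55). The linker MACF1 (1.57) and the desmosomal cadherin DSC3 (1.44) were higher in the triple knockout line, and EPPK1, epiplakin, was lower (-1.37, adjusted p = 0.000139). EPPK1 lies on chromosome 8 beyond 140 Mb, where the median change of 93 genes expressed at 1 CPM or more on average was -0.78 on the log2 scale in the triple knockout line. That median was already -0.68 in double knockout cells, where EPPK1 was at 0.01 (adjusted p = 0.983). Between the triple and double knockout lines the median was -0.14 and EPPK1 was at -1.38 (adjusted p = 0.000347). The part of the region in these levels was not tested. DSC3 went the other way in *AGO1* knockout cells, at -1.31 (SE 0.11, adjusted p = 3.64e-06).

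Several other intermediate filament genes were higher in the double and triple knockout lines. Of 15 genes 10 were tested, with 5 higher and 0 lower in double knockout cells and 6 higher and 1 lower in triple knockout cells, at medians of 0.82 and 0.99 on the log2 scale. Of all genes 8.37% and 20.3% were called higher in these lines, and without WT replicate 2 the counts were 5 and 0 in the double and 5 and 1 in the triple knockout line. VIM, vimentin of mesenchymal cells, was at 4.55, 3.16 and 4.86 CPM in WT samples, at 24.6, 21.5 and 25.8 CPM in double knockout and at 42.7, 49.1 and 64.8 CPM in triple knockout cells. WT did not overlap the double or triple knockout lines. The log2 fold changes were 2.52 (SE 0.24, adjusted p = 3.94e-06) and 3.64 (SE 0.24, adjusted p = 2.51e-08). VIM was also called in *AGO1* (0.94, adjusted p = 0.0219) and *AGO2* knockout cells (-0.76, adjusted p = 0.0438), but these calls were lost under 4 and 12 of 22 settings, the first with 0.78 (adjusted p = 0.079) without WT replicate 2. Per length of transcript VIM was not compared with the keratins. NES, nestin, was higher by 2.5 and DES, desmin, by 1.35 in triple knockout cells, and PRPH, peripherin, was lower by a log2 fold change of -1.76 (adjusted p = 0.00659). PRPH was at 8.03 CPM in WT replicate 2 against 1.97 and 1.93 CPM, and its log2 fold change without that sample was -0.76 (adjusted p = 0.0403).

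Among 10 genes whose proteins bind or process keratins, all tested, 5 were called higher and 1 lower in triple knockout cells (20.3% and 19.8% of all genes), and 0 were called in *AGO1* knockout cells. Without WT replicate 2 the triple knockout line gave 4 higher and 2 lower. The keratin-binding protein TCHP was higher (0.72, adjusted p = 0.000696). FAM83H, which organizes keratin filaments and lies in the same part of chromosome 8 as EPPK1, was lower (-0.93, adjusted p = 8.88e-05). In double knockout cells FAM83H was at -0.17 and not called (adjusted p = 0.476). Between the triple and double knockout lines it was at -0.76 (adjusted p = 0.00121).

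Several transcription factors of epithelia were lower in the double and triple knockout lines. Of 15 factors 12 were tested, with 0 higher and 6 lower in triple knockout cells (median -0.62) and 1 higher and 7 lower in double knockout cells (median -0.81), where 19.8% and 8.35% of all genes were called lower. Without WT replicate 2 the counts were 0 and 6 in the triple and 1 and 5 in the double knockout line. GRHL2, a factor that maintains epithelial junctions, was at 27.4 to 36.6 CPM in WT, 1.81 to 2.18 CPM in double knockout and 0.9996 to 1.21 CPM in triple knockout cells, and changed by -4.82 on the log2 scale (SE 0.18, adjusted p = 1.93e-10) in the last. ELF3, an epithelial ETS factor, was at 52.2 to 79.5 CPM in WT and 6.27 to 8.22 CPM in triple knockout cells (-3.21, adjusted p = 1.20e-07). Its relative EHF was lowest in *AGO1* knockout cells, at 2.52 to 2.71 CPM against 53.2 to 62.1 CPM in WT. The log2 fold change of EHF there was -4.47 (adjusted p = 5.89e-11). KRT8, KRT15, KRT19 and KRT80 also had their lowest means in that line, but of these only KRT15 was called there against WT. In *AGO1* knockout cells 2 of the factors were called higher and 3 lower, beside 3.17% and 5.50% of all genes. TFAP2A was among the lower (-1.59, adjusted p = 2.23e-05) and was not called in double (0.17) or triple knockout cells (0.26). EHF was called lower in double (-1.48, adjusted p = 8.93e-07) and triple knockout cells (-0.76, adjusted p = 7.74e-05), where KRT15 was not called. A link between EHF or TFAP2A and any keratin was not tested. KLF5, at 152 CPM in WT replicate 2 against 96.4 and 91.9 CPM in the other WT samples, had a log2 fold change of -0.66 in triple (adjusted p = 0.00734) and in *AGO2* knockout cells (adjusted p = 0.0195). Without that sample the values were -0.41 (adjusted p = 0.0317) and -0.42 (adjusted p = 0.0802), so that the second call was lost.

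Colorectal epithelium was checked with 10 markers, of which 5 were tested and PHGR1 and TSPAN8 were at 3 counts or fewer in each sample of each line. Their summed level was 386 to 513 CPM in WT samples, 242 to 322 in *AGO1*, 396 to 431 in *AGO2*, 173 to 193 in double knockout and 87.5 to 92.1 CPM in triple knockout cells. In the triple knockout line, where 19.8% of all genes were lower, 4 were lower and 0 higher, namely CDH1, E-cadherin (-3.51, adjusted p = 7.51e-08), CLDN7, a claudin (-3.29, adjusted p = 6.19e-07), EPCAM (-1.74, adjusted p = 6.02e-09) and CDX2 (-0.58, adjusted p = 0.00507). KRT8 was called higher and KRT18 was not called in the same samples, and whether KRT8 differs from each of them was not tested. Of the 7 haematopoietic markers CD3E was at the floor in every line, and their sum was 2.61 to 5.88 CPM in WT, 11.1 to 15.0 in double knockout and 9.40 to 10.9 CPM in triple knockout cells. LYZ, lysozyme, was at 0.0603 to 0.169 CPM in WT, 2.09 to 3.93 CPM in double knockout (log2 fold change 4.63, adjusted p = 9.32e-07) and 6.68 to 8.13 CPM in triple knockout cells (5.87, adjusted p = 9.74e-09). CD68, a macrophage marker, was at 1.27 to 4.70 CPM in WT, 7.23 to 9.77 CPM in double knockout (1.31, adjusted p = 0.0222, lost under 3 of 22 settings) and 1.24 to 1.72 CPM in triple knockout cells (-1.09, adjusted p = 0.0402). The last call was lost under 6 of 22 settings, with adjusted p = 0.0962 without WT replicate 2. PTPRC, the remaining tested marker of this list, was not called in double (0.29, adjusted p = 0.420) or triple knockout cells (0.01, adjusted p = 0.971). Of the 8 fibroblast markers LUM, THY1 and FAP were at the floor in every line. The sum of the 8 was 23.7 to 31.1 CPM in WT and 11.8 to 13.6 CPM in *AGO2* knockout cells, the extremes over all lines. COL1A1 was called lower in *AGO1* (-0.96), *AGO2* (-1.17) and double knockout cells (-1.03). COL3A1, at the floor in WT, was called higher in *AGO1* (at least 6.41-fold) and triple knockout cells (at least 5.05-fold). PDGFRB was called lower in *AGO2* knockout cells (at least 6.75-fold). The 5 endothelial markers summed to 1.79 to 4.06 CPM. The part of these genes in the keratin levels was not tested. In such bulk samples fewer cells of a kind and less RNA per cell cannot be told apart.

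**Figure D5:**
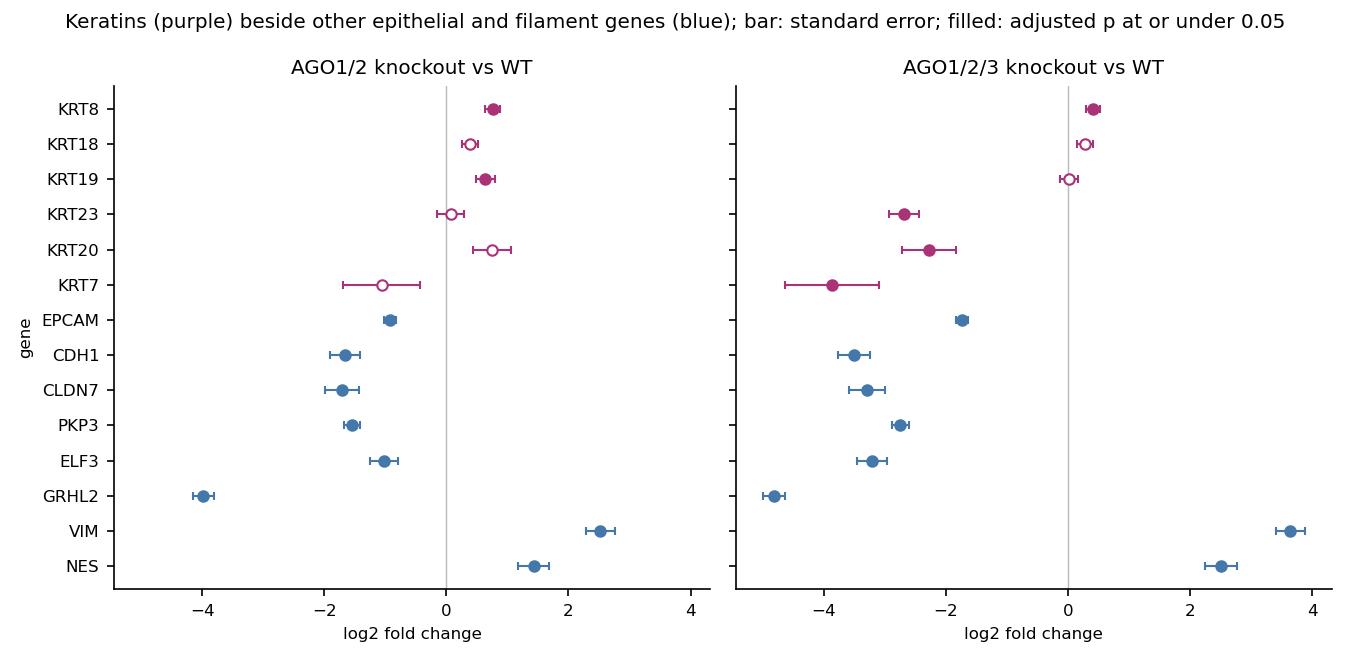
Log2 fold change and standard error (horizontal axes) of 6 keratins (purple) and 8 other epithelial and filament genes (blue) in double knockout and triple knockout cells against WT, with filled points for adjusted p at or under 0.05. In the triple knockout line KRT8, KRT18 and KRT19 lie at 0.41, 0.28 and 0.02. KRT23, CDH1 and GRHL2 lie at -2.69, -3.51 and -4.82 there and VIM at 3.64. The blue genes were picked from longer lists. PKP3 is the only desmosomal gene shown, while of 16 tested desmosome and linker genes 9 were called higher and 3 lower in that line. The tested marker CEACAM5 is not shown and was not called there (0.22, adjusted p = 0.622).

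The keratin genes sit in a type II cluster on chromosome 12, which also holds KRT18, and a type I cluster on chromosome 17. Of the 9 tested non-member genes nearest to the chromosome 12 members, 0 were higher and 5 lower in triple knockout cells, with a median log2 fold change of -0.93. Over the whole set tested, 20.3% were higher and 19.8% lower with a median of -0.01, and the genes of chromosome 12 at 1 CPM or more had a median of 0.06. Of the 14 nearest to the chromosome 17 members, 3 were higher and 5 lower, with a median of -0.16. KRT20 and KRT23, both lower in the triple knockout line, are neighbours in the same cluster as KRT15 and KRT19, which were not called there.

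The genes whose pattern over the 15 samples was most like that of a called member were found by Pearson's r of log2 CPM, as a description in which all points share the library and the 5 lines. For KRT23 they were ZNF503-AS1 (0.982), RAB25 (0.973), a small GTPase of epithelial cells, and MIR200CHG (0.967), the host transcript of miRNAs of the miR-200 family. RAB25 had a mean of 34.6 CPM in WT and 0.406 CPM in triple knockout cells, and MIR200CHG of 2.05 and 0.1002 CPM. KRT20 was most like DNPH1 (0.951), KCNAB2 (0.948) and MRPL20-AS1 (0.938), and KRT7 most like RHOF (0.948), ADGRG1 (0.932) and FTH1 (0.923). KRT8 was most like S100A3 (0.946), P4HB (0.944) and BAZ2A (0.938), and KRT80 most like RBMS2 (0.941), TES (0.935) and RNF13 (0.935).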

How the data were processed

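RNAseq of 15 HCT116 samples (5 lines, 3 samples each) was analysed. The values are estimated counts per gene, which the authors deposited after alignment by STAR (2.5.3a in the submitters' processing notes) to hg38 and quantification by Salmon (0.11.0), with no scaling for depth. Between 30.8% and 33.8% of values in a sample were not whole. Of 105 sample pairs, 0 held identical files. Total counts set the precision, and the floor of a line was 3 counts in every one of its libraries. The methods name DESeq2 as the study's test.

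Counts were rounded to whole numbers, filtered by filterByExpr and normalized by TMM. A mean per line was fitted with edgeR 4.0.16 in R 4.3.3, with p-values adjusted over 22842 genes. The biological coefficient of variation was 0.152. DESeq2 1.42.0 was run as an alternative. Python 3.11.15 with numpy 2.4.6, pandas 2.3.3 and matplotlib 3.10.9 made the summaries. Symbols and positions come from GENCODE v44 on GRCh38, which holds 57167 of the 57875 genes. The fit was tested on simulated data. The smallest p an exact permutation test of 3 samples against 3 can give is 0.1. Replicate numbers did not pair the samples.

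The members and gene lists were chosen with earlier results of these data known. Genes named are the 10 members, the other keratins that passed the filter, up to 4 called genes per list and comparison with a mean of at least 1 CPM and the largest change, defining markers at the floor, *AGO1* to *AGO4*, pseudogenes and neighbours as groups, and the 3 genes most like each member called in *AGO1/2/3* knockout cells. KRT86 and genes named for other reasons were chosen after their values were seen. Alternatives were DESeq2's size factors, total counts only, the DESeq2 Wald test, no filter, a minimum of 10 counts in all samples, a fit of the 6 samples compared, a replicate block, a 2-fold threshold and leaving out each sample. Some genes that this rule names are not reported here.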

Additional observations from a re-analysis of the deposited data

Results flagged for a closer look

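For 6 keratins the effect of AGO1 loss differed between cells with and without AGO2 by a test of the difference itself in edgeR's model. The difference, on the log2 scale, was 1.65 for KRT15, 1.10 for KRT18, 0.94 for KRT19, 4.11 for KRT7, 1.18 for KRT8 and 2.46 for KRT80. The effects themselves were called in cells with AGO2 for KRT7 and KRT15 (lower) and in cells without AGO2 for KRT8, KRT18 and KRT19 (higher), and the others were not called. Across the alternatives run, the difference was past the threshold in 21 of 21 for KRT15, KRT18, KRT19, KRT7 and KRT8 and in 16 of 21 for KRT80. The part of the single line that stands for each genotype was not tested. Neither was that of the header label, taken as a Salmon mode, that only the *AGO2* knockout samples bear.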

How the results depend on the processing

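Of 23 calls on single keratins, 13 held under every alternative run and 0 reversed, and all 38 reversed values were of uncalled changes. With total counts only, the all-gene median, on the log2 scale, moved from -0.02 to -0.14 in *AGO2* and from -0.01 to -0.15 in triple knockout cells. That scaling turned the genes called higher and lower from 725 and 1257 to 511 and 1985 (*AGO1*), from 1952 and 2456 to 733 and 3593 (*AGO2*), from 1913 and 1907 to 1394 and 2597 (double knockout) and from 4644 and 4522 to 3459 and 5962 (triple knockout). For the difference of the AGO1 loss effect it moved the median from 0.05 to 0.17 and the calls from 2618 and 1887 to 3467 and 1228. It also gave 4 members lower in *AGO1* and 0 higher in triple knockout cells. With only the 6 samples compared, genes called were 658 (*AGO1*), 1868 (*AGO2*) and 2116 (double knockout) in place of 1982, 4408 and 3820. In the same order 1 member was lower, 0 were lower and 1 was higher, and 0 members were higher in triple knockout. Between the triple and double knockout lines the genes called rose from 5015 to 5992 in that setting. A 2-fold threshold left 776, 1332, 1320 and 3640 genes against WT, 1505 between the triple and double knockout lines and 2253 for the difference, with 1 member lower in *AGO2*, 0 higher in double knockout and 1 higher in triple knockout. DESeq2 gave 1 member higher in triple knockout, and at least 10 counts in every sample removed KRT20, leaving 0 higher in *AGO2* knockout cells. Leaving out 1 sample gave 964 to 1984 genes called in *AGO1* and 1529 to 5190 in *AGO2* knockout cells, members lower of 1 to 3 and 0 to 3, and members higher of 0 to 1 (*AGO2*), 1 to 3 (double knockout) and 0 to 3 (triple knockout). The type I to type II ratio by coding length was 1.57, 1.59, 1.5, 1.31 and 1.32 in WT, *AGO1*, *AGO2*, double and triple knockout cells, and by mean transcript length 1.82, 1.80 and 1.54 in *AGO1*, *AGO2* and double knockout. Where no construction is named, the cause was not tested. Low counts limit KRT17, KRT20 and KRT81.

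Uncalled changes that turned sign with total counts only were KRT20 in *AGO1* (-0.08), KRT19 (-0.01) and KRT23 (-0.07) in *AGO2*, KRT23 in double knockout (-0.03), KRT19 in triple knockout (-0.12) and the KRT23 difference (0.00). KRT19 in triple knockout was also -0.01 with no filter, -0.05 with at least 10 counts and -0.04 with the 6 samples compared. With 1 sample left out, sign changes ran from -0.24 to 0.22 (KRT20, *AGO1*), -0.02 to 0.28 (KRT19, *AGO2*), -0.17 to 0.23 (KRT23, *AGO2*), -0.84 to 0.29 (KRT80, *AGO2*), -0.05 to 0.26 (KRT23, double knockout), -1.56 to 0.36 (KRT7, double knockout), -0.11 to 0.19 (KRT19, triple knockout), -0.32 to 0.08 (KRT23 difference) and, between the triple and double knockout lines, -0.05 to 0.16 (KRT15) and -0.25 to 0.02 (KRT18).

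The replicate numbers did not pair the samples: 30 same-numbered pairs had a mean correlation of deviations of -0.00669, and 5 were over 0.1. With the replicate block 1781, 3798, 3599 and 8945 genes were called against WT in the *AGO1*, *AGO2*, double and triple knockout lines, 3 members were higher in double knockout, and KRT20 in *AGO1* was at 0.00.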
